A study of Mus musculus with 48 samples.

Results

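Transcript levels of 10 nucleic acid sensors were followed in mouse liver after antisense treatment. The members were the rows of the deposited count table with the symbols Tlr3, Tlr7, Tlr9, Unc93b1, Myd88, Ddx58, Ifih1, Dhx58, Zbp1 and Aim2. All 10 are called sensors here for short, though Unc93b1 encodes a chaperone and Myd88 an adaptor of such receptors. They were 10 of the 23930 genes listed and 10 of the 12672 genes that passed the filter on low counts. Mouse livers received 1 of 3 modified gapmer antisense oligonucleotides against Scarb1, which the labels call LX-A1656, LX-A2003 and LX-A3928, or PBS, the vehicle. Such strands carry a DNA stretch between modified ends, and the cell's RNase H cuts the transcript they bind. Sampling took place 24 h, 72 h or 168 h after dosing began, that is on days 1, 3 and 7. Each of the 12 groups had 4 replicates, 48 libraries in all. The labels used here give no dose, later dosing, oligonucleotide sequence, chemistry, genotype, strain, sex or age. Whether each replicate is a separate animal is not stated, so p-values reflect the spread of these libraries alone, part of which may be technical.

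Nucleic acid sensors are receptors of innate immunity that bind foreign or misplaced RNA or DNA and start interferon and inflammatory signalling. Toll-like receptors (TLRs) of this kind sit in endosomes, where internalised nucleic acid arrives, while the RIG-I-like receptors, ZBP1 and AIM2 act in the cytosol or nucleus. In liver, Kupffer cells, dendritic cells, endothelial cells and hepatocytes carry different sets of them. Several of the genes are also interferon-stimulated, so their transcripts can rise after interferon from any source.

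Levels are CPM, read counts relative to the library total after scaling with the TMM factors of edgeR. Differences are log2 fold changes of the edgeR quasi-likelihood fit to all 48 libraries, ± an SE derived from its F statistic. A gene is called where its p, adjusted by Benjamini-Hochberg over the 12672 genes, was under 0.05. Library totals ran from 8140065 to 17191129 counts with a median of 10659453. Scarb1, the target, averaged 10.6 ± 1.04 CPM under LX-A1656, 23.0 ± 7.80 CPM under LX-A2003 and 48.1 ± 9.78 CPM under LX-A3928, against 272 ± 24.2 CPM with PBS at 24 h (SD, n = 4 each). At 168 h it averaged 16.3, 12.5 and 9.32 CPM in these groups, against 319.7 CPM with PBS, so the labels of treated and PBS libraries held. Liver identity was plain from albumin, whose transcript Alb averaged at least 16310.4 CPM in every group. In 6 groups 1 library stood apart: the smallest of its 3 differences from its fellows, as chi-square per degree of freedom, was over 1.5 times the largest among these. These were replicate 1 of LX-A1656 and of LX-A2003 and replicate 4 of LX-A3928 at 72 h, and replicate 4 of LX-A1656 and of LX-A2003 and replicate 3 of LX-A3928 at 168 h. The last stood farthest out, with a chi-square per degree of freedom of 130.8 to 215.5 against its fellows, compared with 14.1 to 82.7 among them. In 3 more groups, LX-A1656 at 24 h and PBS at 24 h and 72 h, replicate 4 also differed from each fellow by more than these did from each other, by less than that factor. The kit reads a short designed amplicon of each gene, so other parts of its transcript were not read.

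None of the 10 sensors was called at 24 h with any oligonucleotide, 8 were higher with LX-A1656 at 72 h, and at 168 h 8 or 9 were higher with each oligonucleotide. No member was called lower than PBS in any of the 9 comparisons. At 24 h the counts of 0 stood beside 0, 0 and 1 members at an unadjusted p under 0.05 under LX-A1656, LX-A2003 and LX-A3928, and DESeq2 also called 0 in each. All 4 libraries lay above all 4 PBS libraries in 0, 1 and 1 members, which 5.56%, 6.18% and 8.70% of all genes did. Over all genes tested, 2.86%, 2.09% and 3.26% were called in either direction at that time.

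At 72 h, 8 members were higher with LX-A1656, where 24.7% of all genes tested were higher. LX-A2003 and LX-A3928 each had 3 higher members, where 5.48% and 4.47% of all genes were higher. Over all genes 23.4%, 6.55% and 5.33% were lower. Every library lay above every PBS library in 8, 4 and 4 members, which 23.4%, 10.8% and 8.10% of all genes did. Unc93b1, Ddx58 and Dhx58 were called with all 3 oligonucleotides. Tlr3, Tlr9, Myd88, Ifih1 and Zbp1 were called with LX-A1656 and with neither of the others, and Tlr7 and Aim2 with none. The median log2 fold change of the members was 1.04 under LX-A1656, 0.42 under LX-A2003 and 0.31 under LX-A3928, beside 0.05, 0.02 and 0.02 over all genes tested.

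At 168 h, 9 members were higher under LX-A1656, 8 under LX-A2003 and 9 under LX-A3928, where 34.1%, 29.8% and 27.3% of all genes tested were higher and 29.7%, 25.3% and 20.7% lower. Tlr3, Tlr7, Tlr9, Unc93b1, Myd88, Ddx58, Dhx58 and Zbp1 were called with all 3, Aim2 with LX-A1656 and LX-A3928, and Ifih1 with none. Median log2 fold changes of the members were 0.96, 1.18 and 1.59, beside 0.10, 0.04 and 0.08 over all genes. Every library lay above every PBS library in 7 members under LX-A1656, 8 under LX-A2003 and 6 under LX-A3928, a separation that 29.5%, 24.8% and 17.4% of all genes showed. The 3 comparisons at a time share their PBS libraries. In these bulk samples fewer cells of a type and less RNA per cell cannot be told apart. Without the 6 libraries that stood apart, a fit chosen after seeing the data, the counts at 72 h were 9, 3 and 3 and those at 168 h were 8, 8 and 8. Scaling by library totals in place of TMM moved the median of all genes by 0.47, 0.42 and 0.30 on the log2 scale under LX-A1656, LX-A2003 and LX-A3928 at 168 h and by 0.21 with LX-A1656 at 72 h. It put 73.7%, 77.7% and 77.9% of the called genes on the higher side at 168 h, where TMM put 53.5%, 54.0% and 56.9%. At 72 h it put 66.6% there with LX-A1656 and 34.3% with LX-A3928, where TMM put 51.4% and 45.6%.

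**Figure D1:**
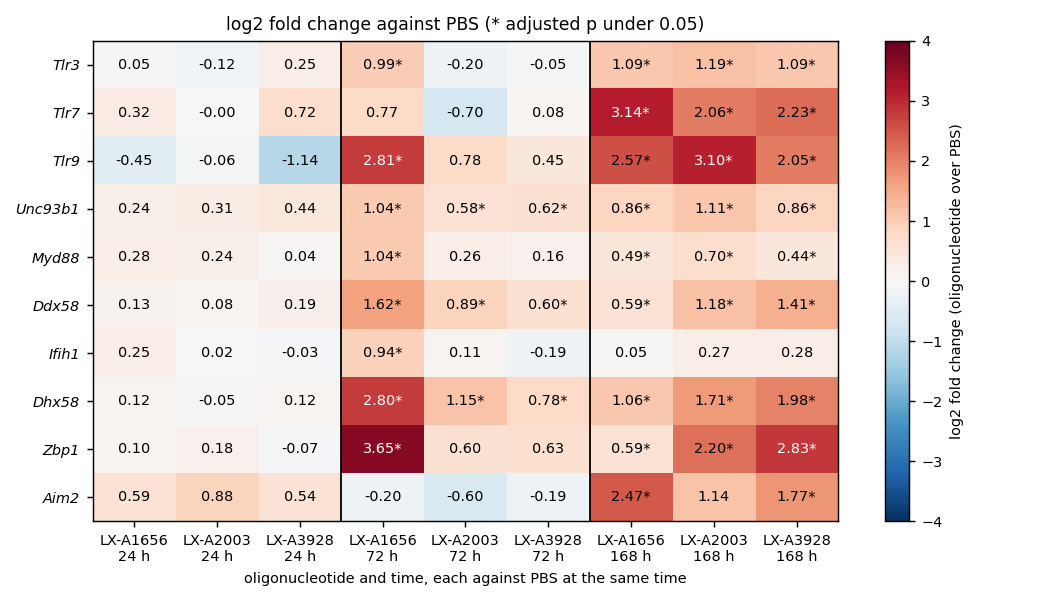
Heat map of the log2 fold change of each of the 10 sensors (rows) with each oligonucleotide over PBS at the same time (columns), with the value in each cell and a star where the adjusted p was under 0.05. Red is higher with the oligonucleotide and blue lower; the 24 h columns hold no star, and the deepest red is Zbp1 with LX-A1656 at 72 h, at 3.65.

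Of the 10 members, 6 matched the table of RefSeq promoters used here, for GRCm38.p6, which runs from 250 bases before to 50 bases after the annotated start (Tlr3, Tlr9, Myd88, Ddx58, Ifih1 and Aim2). Tlr7, Unc93b1, Dhx58 and Zbp1 were not matched and not searched. The 6 promoters were searched on both strands for the core of the interferon-stimulated response element (GAAA, any 2 bases, GAAA), bound by interferon regulatory factors and STAT complexes, and for TTCNNNGAA, a site form bound by STAT dimers. The core was in 3 of the 6, those of Ddx58, Ifih1 and Myd88, and in 3.44% of the 32851 promoters in the table. These are shown because they carry that match, which stands in capitals, with each sequence 5′ to 3′ on the strand of its gene.
Ddx58, chr4:40239776-40240075, minus strand: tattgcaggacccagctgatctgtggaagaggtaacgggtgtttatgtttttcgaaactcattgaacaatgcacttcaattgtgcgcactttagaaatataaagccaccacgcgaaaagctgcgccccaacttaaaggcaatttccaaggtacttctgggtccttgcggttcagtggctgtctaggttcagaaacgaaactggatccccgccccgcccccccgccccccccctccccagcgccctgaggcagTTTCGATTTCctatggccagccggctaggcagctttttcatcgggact
Ifih1, chr2:62646206-62646505, minus strand: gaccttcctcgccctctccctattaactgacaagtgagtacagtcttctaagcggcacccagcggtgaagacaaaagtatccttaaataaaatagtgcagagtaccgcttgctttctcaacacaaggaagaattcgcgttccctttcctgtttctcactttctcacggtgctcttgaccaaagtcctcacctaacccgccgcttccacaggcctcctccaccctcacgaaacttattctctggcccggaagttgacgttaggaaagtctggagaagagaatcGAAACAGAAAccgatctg
Myd88, chr9:119339969-119340268, minus strand: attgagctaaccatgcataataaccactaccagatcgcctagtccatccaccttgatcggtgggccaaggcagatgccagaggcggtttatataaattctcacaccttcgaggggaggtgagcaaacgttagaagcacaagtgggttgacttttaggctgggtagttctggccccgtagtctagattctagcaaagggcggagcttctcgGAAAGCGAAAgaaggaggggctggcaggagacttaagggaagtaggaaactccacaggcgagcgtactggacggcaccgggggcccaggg
In Ddx58 the match lies on the opposite strand and starts 2 bases after the annotated start; in Ifih1 it starts 32 bases after it. In Myd88 it starts 40 bases before the start, and TTCNNNGAA starts 46 bases before it as TTCTCGGAA and shares its last letters, GAA, with the other match. TTCNNNGAA was in 1 of the 6 member promoters and in 8.30% of all. A match is a description of these letters and not of a bound site, and Ddx58, Ifih1 and Myd88 differed in their values at 168 h, as given with each gene.

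Tlr3, Tlr7 and Tlr9 are the endosomal receptors for duplex RNA, single-stranded RNA and DNA with unmethylated CpG, and all 3 transcripts were higher with every oligonucleotide at 168 h. Tlr3 rose with LX-A1656 at 72 h. Its libraries held 12.0, 12.9, 14.7 and 16.9 CPM with LX-A1656, against 4.53, 6.98, 8.16 and 8.90 CPM with PBS. With LX-A2003 they held 4.70, 4.98, 5.62 and 9.27 CPM and with LX-A3928 5.47, 5.80, 6.61 and 9.74 CPM. All 4 LX-A1656 libraries lay above all others, and the remaining 3 groups overlapped. The log2 fold change was 0.99 ± 0.23 with LX-A1656 (edgeR adjusted p = 4.60e-04), -0.20 ± 0.24 with LX-A2003 and -0.05 ± 0.24 with LX-A3928. At 168 h Tlr3 had 6.23, 6.69, 9.69 and 10.9 CPM under LX-A1656, 7.24, 9.18, 9.27 and 10.1 CPM under LX-A2003 and 5.00, 7.84, 9.70 and 11.2 CPM under LX-A3928, against 3.23, 3.81, 4.27 and 4.35 CPM with PBS. Every treated library was above every PBS library, and the treated groups overlapped each other. Fold changes were 1.09 ± 0.25, 1.19 ± 0.25 and 1.09 ± 0.25 in that order of oligonucleotides (edgeR adjusted p = 1.74e-04, 7.55e-05 and 3.18e-04).

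Tlr7 was highest with LX-A1656 at 168 h. There it had 8.60, 12.1, 13.9 and 15.6 CPM, against 0.538, 1.40, 1.55 and 2.14 CPM with PBS. It had 5.04, 5.26, 5.44 and 8.08 CPM with LX-A2003 and 2.31, 3.85, 5.23 and 16.1 CPM with LX-A3928. All treated libraries exceeded all PBS libraries, and 1 LX-A3928 library, replicate 3, was the highest of the time at 16.1 CPM. Its log2 fold change was 3.14 ± 0.40 with LX-A1656 (edgeR adjusted p = 3.08e-09), 2.06 ± 0.40 with LX-A2003 (adjusted p = 2.64e-05) and 2.23 ± 0.40 with LX-A3928 (adjusted p = 1.05e-05). Without LX-A3928 replicate 3 the value for that oligonucleotide was 1.41 (adjusted p = 6.29e-04). At 72 h its libraries held 2.09, 2.26, 4.02 and 5.55 CPM under LX-A1656, 0.650, 1.20, 1.40 and 1.64 CPM under LX-A2003 and 1.76, 2.21, 2.31 and 2.32 CPM under LX-A3928, against 1.68, 1.88, 2.19 and 2.39 CPM with PBS. All 4 LX-A2003 libraries lay below all PBS libraries, as 11.8% of all genes did, and the other groups overlapped PBS, and no oligonucleotide was called. The LX-A1656 value at 72 h, 0.77 ± 0.39 (adjusted p = 0.0965), passed the threshold without LX-A1656 replicate 2, at 0.95 (adjusted p = 0.0495), with library totals, at 1.00 (adjusted p = 0.0197), and without the 6 libraries that stood apart, at 0.93 (adjusted p = 0.0125).

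Tlr9 was near the floor of detection in PBS libraries and rose with LX-A1656 at 72 h and with all 3 oligonucleotides at 168 h. The 4 PBS libraries together held 23, 15 and 25 reads of it at 24 h, 72 h and 168 h, with 1 to 11 in a library. At 72 h the LX-A1656 libraries had 2.18, 3.02, 3.39 and 3.48 CPM, against 0.221, 0.241, 0.498 and 0.731 CPM with PBS. LX-A2003 libraries had 0.541, 0.600, 0.644 and 1.05 CPM and LX-A3928 libraries 0.315, 0.332, 0.518 and 0.998 CPM of Tlr9. The LX-A1656 libraries stood clear of every other library, and the other groups overlapped. Its log2 fold change was 2.81 ± 0.48 with LX-A1656 (edgeR adjusted p = 3.43e-06), 0.78 ± 0.55 with LX-A2003 and 0.45 ± 0.57 with LX-A3928. At 168 h Tlr9 had 3.58, 3.94, 4.32 and 6.60 CPM under LX-A1656, 4.99, 5.44, 6.07 and 10.2 CPM under LX-A2003 and 1.58, 2.05, 4.07 and 4.92 CPM under LX-A3928, against 0.127, 0.517, 1.08 and 1.38 CPM with PBS. Treated and PBS libraries did not overlap. The fold changes were 2.57 ± 0.43, 3.10 ± 0.43 and 2.05 ± 0.44 under LX-A1656, LX-A2003 and LX-A3928 (edgeR adjusted p = 1.44e-06, 4.35e-08 and 1.39e-04).

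Unc93b1 encodes the chaperone that carries these receptors from the endoplasmic reticulum to endosomes, and it rose with all 3 oligonucleotides at both 72 h and 168 h. It had 139, 148, 177 and 264 CPM with LX-A1656 at 72 h, against 75.7, 90.6, 92.0 and 95.6 CPM with PBS. With LX-A2003 it had 121, 129, 130.2 and 149 CPM and with LX-A3928 114, 137, 140.0 and 155 CPM. All treated libraries exceeded all PBS libraries. On the log2 scale the change was 1.04 ± 0.19 with LX-A1656 (edgeR adjusted p = 8.32e-06), 0.58 ± 0.19 with LX-A2003 (adjusted p = 0.0307) and 0.62 ± 0.19 with LX-A3928 (adjusted p = 0.0220). The LX-A2003 call was lost without any 1 of its replicates 1, 3 and 4 or of PBS replicates 2, 3 and 4, with values of 0.51 to 0.60 (adjusted p = 0.0513 to 0.112). The LX-A3928 call was lost without its replicate 3, at 0.56 (adjusted p = 0.0821), without PBS replicate 2, at 0.56 (adjusted p = 0.0910), and with library totals, at 0.55 (adjusted p = 0.0575). At 168 h Unc93b1 had 152, 174, 181 and 258 CPM under LX-A1656, 157, 213, 229.5 and 312 CPM under LX-A2003 and 116, 179, 226 and 245 CPM under LX-A3928, against 93.6, 93.9, 103 and 131 CPM with PBS. The highest PBS library overlapped the lowest LX-A3928 library, replicate 3, and no other. Fold changes were 0.86 ± 0.19, 1.11 ± 0.19 and 0.86 ± 0.19 (edgeR adjusted p = 8.94e-05, 2.13e-06 and 1.50e-04). At 24 h all 4 LX-A2003 and all 4 LX-A3928 libraries of Unc93b1 were above all PBS libraries, with values of 0.31 ± 0.19 (adjusted p = 0.547) and 0.44 ± 0.19 (adjusted p = 0.233), a separation that 6.18% and 8.70% of all genes showed. The LX-A3928 value at 24 h passed the threshold when only the libraries compared were fitted, at 0.44 (adjusted p = 0.00338), and without the 6 libraries that stood apart, at 0.44 (adjusted p = 0.0250).

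Myd88 encodes the adaptor of TLR7, TLR9 and the interleukin 1 receptors, which TLR3 does not use. Its libraries at 72 h had 50.1, 50.4, 52.8 and 70.5 CPM with LX-A1656, against 25.3, 27.0, 28.0 and 28.3 CPM with PBS. LX-A2003 gave 29.8, 31.1, 32.2 and 36.7 CPM of Myd88 and LX-A3928 28.9, 30.2, 30.3 and 32.1 CPM. All treated libraries lay above all PBS libraries, and those of LX-A1656 above all others. The log2 fold change was 1.04 ± 0.17 with LX-A1656 (edgeR adjusted p = 1.70e-06), and the values 0.26 ± 0.17 with LX-A2003 and 0.16 ± 0.17 with LX-A3928 were not called (adjusted p = 0.401 and 0.653). At 168 h Myd88 had 27.3, 34.2, 46.6 and 59.9 CPM under LX-A1656, 40.5, 49.2, 49.2 and 55.2 CPM under LX-A2003 and 29.8, 40.1, 44.4 and 48.1 CPM under LX-A3928, against 22.9, 26.2, 31.9 and 38.8 CPM with PBS. LX-A2003 libraries were above PBS throughout, while LX-A1656 and LX-A3928 libraries overlapped PBS. It rose by 0.70 ± 0.17 with LX-A2003 (edgeR adjusted p = 5.53e-04). The values for LX-A1656, 0.49 ± 0.17 (adjusted p = 0.0110), and LX-A3928, 0.44 ± 0.17 (adjusted p = 0.0282), passed the threshold but depended on which libraries were fitted. The first was not called without LX-A1656 replicate 4, at 0.27 (adjusted p = 0.161), without PBS replicate 2, at 0.38 (adjusted p = 0.0681), when only the libraries compared were fitted, at 0.48 (adjusted p = 0.102), or without the 6 libraries that stood apart, at 0.27 (adjusted p = 0.0992). The second was not called without LX-A3928 replicate 2, at 0.40 (adjusted p = 0.0713), or 4, at 0.35 (adjusted p = 0.108), without PBS replicate 2, at 0.33 (adjusted p = 0.133), or 4, at 0.39 (adjusted p = 0.0886), with no filter on low counts, at 0.45 (adjusted p = 0.0550), or when only the libraries compared were fitted, at 0.48 (adjusted p = 0.160).

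**Figure D2:**
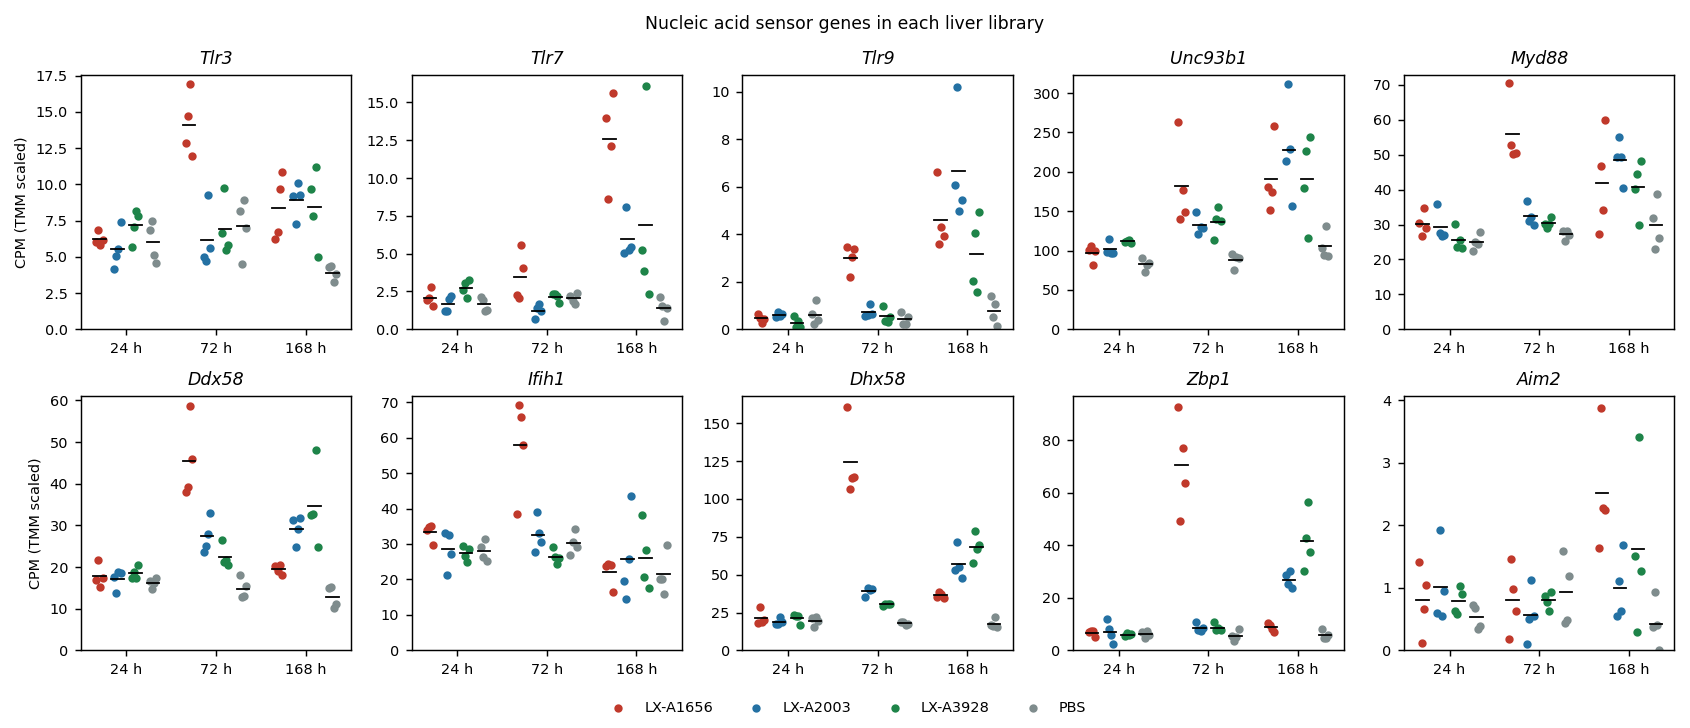
CPM of each of the 10 sensors in every library, with a panel for each gene, the 3 times along the horizontal axis and LX-A1656, LX-A2003, LX-A3928 and PBS from left to right within a time; points are libraries and bars are means of 4. At 24 h all 10 panels hold no called difference, LX-A1656 points stand clear for Zbp1 and Dhx58 at 72 h (means 70.6 and 124 CPM), and at 168 h LX-A3928 and LX-A2003 points lie above those of LX-A1656 for these genes.

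Ddx58, Ifih1 and Dhx58 encode RIG-I, MDA5 and LGP2, the RIG-I-like helicases of the cytosol. RIG-I senses short duplex RNA with a triphosphate end, MDA5 long duplex RNA, and LGP2 lacks the signalling domains of the others and modulates them. Ddx58 rose with every oligonucleotide at 72 h and 168 h. It had 38.0, 39.1, 46.0 and 58.7 CPM with LX-A1656 at 72 h, against 12.7, 13.0, 15.5 and 18.0 CPM with PBS. LX-A2003 libraries had 23.5, 25.1, 28.0 and 33.0 CPM and LX-A3928 libraries 20.4, 21.1, 21.7 and 26.5 CPM of Ddx58. No treated library overlapped PBS. The change on the log2 scale was 1.62 ± 0.17 with LX-A1656 (edgeR adjusted p = 4.47e-11), 0.89 ± 0.17 with LX-A2003 (adjusted p = 1.12e-04) and 0.60 ± 0.17 with LX-A3928 (adjusted p = 0.0136). The LX-A3928 call was lost without its replicate 1, at 0.51 (adjusted p = 0.0628), without PBS replicate 2, at 0.54 (adjusted p = 0.0651), and without PBS replicate 3, at 0.55 (adjusted p = 0.0579). At 168 h Ddx58 had 18.1, 19.2, 20.2 and 20.4 CPM under LX-A1656, 24.8, 29.2, 31.2 and 31.7 CPM under LX-A2003 and 24.8, 32.4, 32.8 and 48.2 CPM under LX-A3928, against 10.2, 11.0, 15.1 and 15.3 CPM with PBS. LX-A2003 and LX-A3928 libraries lay above those of LX-A1656, which lay above PBS. Fold changes were 0.59 ± 0.17, 1.18 ± 0.17 and 1.41 ± 0.17 under LX-A1656, LX-A2003 and LX-A3928 (edgeR adjusted p = 0.00232, 1.05e-07 and 2.44e-09).

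Ifih1 was called in 1 of its 9 comparisons with PBS, that of LX-A1656 at 72 h. It had 38.3, 58.0, 65.9 and 69.1 CPM there, against 26.9, 29.0, 30.6 and 34.3 CPM with PBS. With LX-A2003 and LX-A3928 its libraries held 27.7, 30.5, 33.0 and 38.9 CPM and 24.3, 26.1, 26.3 and 29.1 CPM. LX-A1656 libraries lay above PBS throughout, and the lowest of them, replicate 1, lay within the range of LX-A2003. Its log2 change was 0.94 ± 0.22 with LX-A1656 (edgeR adjusted p = 4.39e-04), 0.11 ± 0.22 with LX-A2003 and -0.19 ± 0.22 with LX-A3928. At 168 h Ifih1 had 16.6, 23.9, 24.2 and 24.3 CPM under LX-A1656, 14.4, 19.5, 25.9 and 43.5 CPM under LX-A2003 and 17.5, 20.6, 28.2 and 38.0 CPM under LX-A3928, against 16.0, 20.1, 20.1 and 29.8 CPM with PBS. All 4 groups overlapped. The values of 0.05 ± 0.22, 0.27 ± 0.22 and 0.28 ± 0.22 had 95% intervals of -0.40 to 0.50, -0.18 to 0.72 and -0.17 to 0.73. With library totals in place of TMM, LX-A2003 and LX-A3928 were called at 168 h, at 0.70 (adjusted p = 0.0139) and 0.58 (adjusted p = 0.0464). Those values stand beside the shifts of 0.42 and 0.30 in the median of all genes. Without the 6 libraries that stood apart the LX-A2003 value was -0.11 (adjusted p = 0.639).

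Dhx58 rose with every oligonucleotide at 72 h and 168 h, and treated and PBS libraries overlapped in none of these 6 comparisons. At 72 h it had 107, 114, 115 and 161 CPM with LX-A1656, against 16.8, 17.2, 18.5 and 18.6 CPM with PBS. It had 35.4, 40.1, 40.7 and 41.3 CPM with LX-A2003 and 29.5, 30.8, 30.9 and 30.9 CPM with LX-A3928. The 4 groups did not overlap at all, with LX-A1656 above LX-A2003, LX-A2003 above LX-A3928 and LX-A3928 above PBS. Log2 fold changes were 2.80 ± 0.16 with LX-A1656 (edgeR adjusted p = 1.21e-19), 1.15 ± 0.15 with LX-A2003 (adjusted p = 1.21e-07) and 0.78 ± 0.15 with LX-A3928 (adjusted p = 2.24e-04). At 168 h Dhx58 had 34.4, 35.0, 37.3 and 38.4 CPM under LX-A1656, 47.8, 53.0, 55.4 and 71.9 CPM under LX-A2003 and 58.0, 67.2, 69.5 and 78.9 CPM under LX-A3928, against 15.4, 15.9, 16.5 and 21.8 CPM with PBS. LX-A1656 libraries lay between PBS and the overlapping LX-A2003 and LX-A3928 libraries. Fold changes were 1.06 ± 0.15, 1.71 ± 0.15 and 1.98 ± 0.15 under LX-A1656, LX-A2003 and LX-A3928 (edgeR adjusted p = 4.14e-08, 3.54e-13 and 9.62e-15).

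Zbp1 encodes a sensor of left-handed (Z-form) nucleic acid that can engage RIPK3 and cell death, and it had the largest fold change of the 10 members in the 9 comparisons with PBS. Its libraries held 49.4, 63.7, 76.9 and 92.4 CPM with LX-A1656 at 72 h, against 3.65, 5.17, 5.48 and 8.08 CPM with PBS. They held 7.30, 7.70, 8.38 and 10.7 CPM with LX-A2003 and 7.67, 7.75, 8.52 and 10.7 CPM with LX-A3928. The lowest LX-A1656 library was above every other library, while LX-A2003 and LX-A3928 overlapped PBS. The log2 fold change was 3.65 ± 0.27 with LX-A1656 (edgeR adjusted p = 2.02e-15), and the values 0.60 ± 0.27 with LX-A2003 and 0.63 ± 0.27 with LX-A3928 were not called (adjusted p = 0.160 and 0.140). At 168 h Zbp1 had 7.08, 8.17, 9.67 and 10.4 CPM under LX-A1656, 23.7, 25.2, 28.7 and 30.1 CPM under LX-A2003 and 30.2, 37.6, 42.9 and 56.5 CPM under LX-A3928, against 4.76, 4.85, 5.71 and 8.17 CPM with PBS. Here LX-A1656 overlapped PBS and the other oligonucleotides stood above both. The lowest LX-A3928 library, at 30.2 CPM, lay just above the highest LX-A2003 library, at 30.1 CPM, and that pair was not called different. Zbp1 rose by 2.20 ± 0.26 with LX-A2003 (edgeR adjusted p = 1.68e-09) and by 2.83 ± 0.27 with LX-A3928 (adjusted p = 4.06e-12). The LX-A1656 value, 0.59 ± 0.27 (adjusted p = 0.0487), just passed the threshold. It was not called without any 1 of LX-A1656 replicates 1, 2 and 3 or of PBS replicates 2, 3 and 4, with values of 0.49 to 0.63 (adjusted p = 0.0545 to 0.138), nor with no filter on low counts, at 0.59 (adjusted p = 0.0607).

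Aim2 encodes the receptor of cytosolic duplex DNA that assembles an inflammasome, and it was called only at 168 h, with LX-A1656 and LX-A3928. Few reads carried it, from 15 in the 4 PBS libraries at 168 h to 154 in the LX-A1656 libraries at that time, with 0 in PBS replicate 2. The 168 h libraries had 1.63, 2.25, 2.28 and 3.88 CPM with LX-A1656, against 0, 0.377, 0.404 and 0.931 CPM with PBS. They had 0.552, 0.624, 1.11 and 1.68 CPM with LX-A2003 and 0.302, 1.27, 1.52 and 3.41 CPM with LX-A3928. LX-A1656 libraries lay above all PBS libraries, and the other groups overlapped PBS. In log2 terms the change was 2.47 ± 0.62 with LX-A1656 (edgeR adjusted p = 5.42e-04), 1.14 ± 0.66 with LX-A2003 (adjusted p = 0.142) and 1.77 ± 0.65 with LX-A3928 (adjusted p = 0.0213). Without PBS replicate 2 these values were 3.23 (adjusted p = 2.90e-04), 1.91 (adjusted p = 0.0469) and 2.53 (adjusted p = 0.00793). The LX-A3928 call was lost without its replicate 3, at 1.18 (adjusted p = 0.140), without PBS replicate 4, at 1.38 (adjusted p = 0.0836), and without the 6 libraries that stood apart, at 1.18 (adjusted p = 0.108). The LX-A2003 value was called with library totals, at 1.55 (adjusted p = 0.0347). At 72 h Aim2 averaged 0.810 ± 0.542 CPM under LX-A1656, 0.570 ± 0.416 CPM under LX-A2003 and 0.803 ± 0.132 CPM under LX-A3928, against 0.926 ± 0.559 CPM with PBS (SD, n = 4 each), with all groups overlapping.

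At 24 h no sensor was called against PBS, and Unc93b1 was the 1 member whose LX-A2003 and LX-A3928 libraries lay above PBS, as given above. The largest difference in either direction was that of Tlr9 with LX-A3928, which had 0.0821, 0.0978, 0.341 and 0.553 CPM, against 0.226, 0.382, 0.629 and 1.23 CPM with PBS. These are 13 and 23 reads in 4 libraries each, and the groups overlapped. The log2 value was -1.14 ± 0.59 (edgeR adjusted p = 0.375). Zbp1 averaged 6.70 ± 1.15, 7.05 ± 4.02 and 5.94 ± 0.448 CPM under LX-A1656, LX-A2003 and LX-A3928, against 6.21 ± 1.12 CPM with PBS, and Dhx58 21.3 ± 4.90, 19.0 ± 2.06 and 21.4 ± 2.88 CPM, against 19.6 ± 3.19 CPM (SD, n = 4 each). Within PBS no member was called at 72 h or at 168 h over 24 h, where 0.0789% and 1.03% of all genes were, and 0 and 1 members had an unadjusted p under 0.05. DESeq2 also called 0 members in both.

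The 3 oligonucleotides share the target and the sampling times, and no dose is stated for any of them, so 9 pairwise comparisons were made at matched times only. At 72 h the sensors were lower with LX-A2003 and LX-A3928 than with LX-A1656. LX-A2003 was lower than LX-A1656 in 9 members, all but Aim2, where 18.0% of all genes tested were lower and 18.0% higher. LX-A3928 was lower than LX-A1656 in 7 members, all but Tlr7, Unc93b1 and Aim2, where 20.1% were lower and 20.4% higher. Zbp1 differed most, by -3.05 ± 0.26 for LX-A2003 over LX-A1656 (edgeR adjusted p = 5.38e-13) and -3.02 ± 0.26 for LX-A3928 over LX-A1656 (adjusted p = 4.39e-13). Dhx58 differed by -1.66 ± 0.15 and -2.02 ± 0.15, and Tlr9 by -2.03 ± 0.42 and -2.35 ± 0.44, in the same order. The smallest call, Unc93b1 with LX-A2003 over LX-A1656 at -0.46 ± 0.18 (adjusted p = 0.0457), was lost without LX-A1656 replicate 1 (-0.23, adjusted p = 0.382) or 3 (-0.48, adjusted p = 0.0646), and without any 1 of LX-A2003 replicates 2, 3 and 4 (-0.45 to -0.42, adjusted p = 0.0837 to 0.112). Unc93b1 with LX-A3928 over LX-A1656, at -0.42 ± 0.18 (adjusted p = 0.0662), became a call without LX-A1656 replicate 2 (-0.52, adjusted p = 0.0273) or 4 (-0.50, adjusted p = 0.0390). The LX-A2003 call of Unc93b1 was also lost with no filter (-0.46, adjusted p = 0.0632), with only the libraries compared (-0.46, adjusted p = 0.0599) and without the 6 libraries that stood apart (-0.29, adjusted p = 0.117). With library totals the median of all genes moved by -0.23 and -0.29 in the pairs of LX-A2003 and LX-A3928 with LX-A1656, 28.0% and 26.0% of calls were higher where TMM gave 50.02% and 50.4%, and Tlr7 (-0.99) and Unc93b1 (-0.71) were also called for LX-A3928.

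At 168 h the pairs split by gene. Ddx58, Dhx58 and Zbp1 were higher with LX-A2003 than with LX-A1656, and Tlr7 and Aim2 were lower, where 18.3% of all genes were higher and 13.8% lower. LX-A3928 over LX-A1656 gave the same 3 higher members and Tlr7 lower, where 23.2% of all genes were higher and 18.5% lower. Zbp1 was higher by 1.61 ± 0.25 with LX-A2003 (edgeR adjusted p = 1.77e-06) and by 2.24 ± 0.25 with LX-A3928 (adjusted p = 8.53e-10), with no overlap of libraries. Dhx58 was higher by 0.65 ± 0.14 and 0.91 ± 0.14, and Ddx58 by 0.59 ± 0.16 and 0.82 ± 0.16. Tlr7 was lower by the values -1.08 ± 0.33 with LX-A2003 (adjusted p = 0.0107) and -0.91 ± 0.33 with LX-A3928 (adjusted p = 0.0251). The LX-A3928 difference in Tlr7 was -1.72 (adjusted p = 8.34e-06) without LX-A3928 replicate 3. It was not called without LX-A3928 replicate 1, 2 or 4 or LX-A1656 replicate 1 or 4, at -0.86 to -0.61 (adjusted p = 0.0569 to 0.131), nor when only the libraries compared were fitted, at -0.85 (adjusted p = 0.258). Aim2 with LX-A2003 over LX-A1656, at -1.32 ± 0.52 (adjusted p = 0.0449), was not called without any 1 of LX-A1656 replicates 2, 3 and 4 or LX-A2003 replicates 1, 2 and 3, at -1.37 to -1.03 (adjusted p = 0.0531 to 0.176). With no filter it was -1.33 (adjusted p = 0.0570). Library totals moved the median of all genes by -0.16 for LX-A3928 over LX-A1656 and put 40.7% of its calls on the higher side, where TMM put 55.6%. Myd88 with LX-A2003 over LX-A1656 became a call without LX-A1656 replicate 4, at 0.43 (adjusted p = 0.0466). Without the 6 libraries that stood apart, 5 members were higher and 2 lower with LX-A2003 than with LX-A1656, and 4 higher and 2 lower with LX-A3928, with Unc93b1 and Myd88 added on the higher side for LX-A2003, and Unc93b1 on the higher and Aim2 on the lower side for LX-A3928. The Tlr7 difference of LX-A3928 was then -1.60 (adjusted p = 2.05e-05).

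LX-A3928 and LX-A2003 were not called different in any member at 24 h, 72 h or 168 h, where 0.150%, 0.718% and 8.10% of all genes were called in either direction. At 168 h 2 members had an unadjusted p under 0.05 in this pair and DESeq2 called 1, and at 72 h 1 had and DESeq2 called 0. The 95% interval of the 168 h difference was -0.03 to 0.55 for Dhx58, -0.09 to 0.56 for Ddx58, -0.56 to 0.37 for Tlr3 and 0.15 to 1.11 for Zbp1. Tlr9 was -1.05 ± 0.35 (edgeR adjusted p = 0.0532) with all 4 LX-A3928 libraries below all 4 LX-A2003 libraries. It was the member that DESeq2 called, at -1.07 (adjusted p = 0.0372). It was also called without LX-A2003 replicate 4 (-1.14, adjusted p = 0.0372), LX-A3928 replicate 2 (-1.19, adjusted p = 0.0325) or LX-A3928 replicate 4 (-1.35, adjusted p = 0.0140). At 24 h no pair was called in any member, where 0.284% of all genes were called for LX-A2003 over LX-A1656 and 2.90% for LX-A3928 over LX-A1656. No member of the 24 h pairs had an unadjusted p under 0.05, and DESeq2 called 0.

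**Figure D3:**
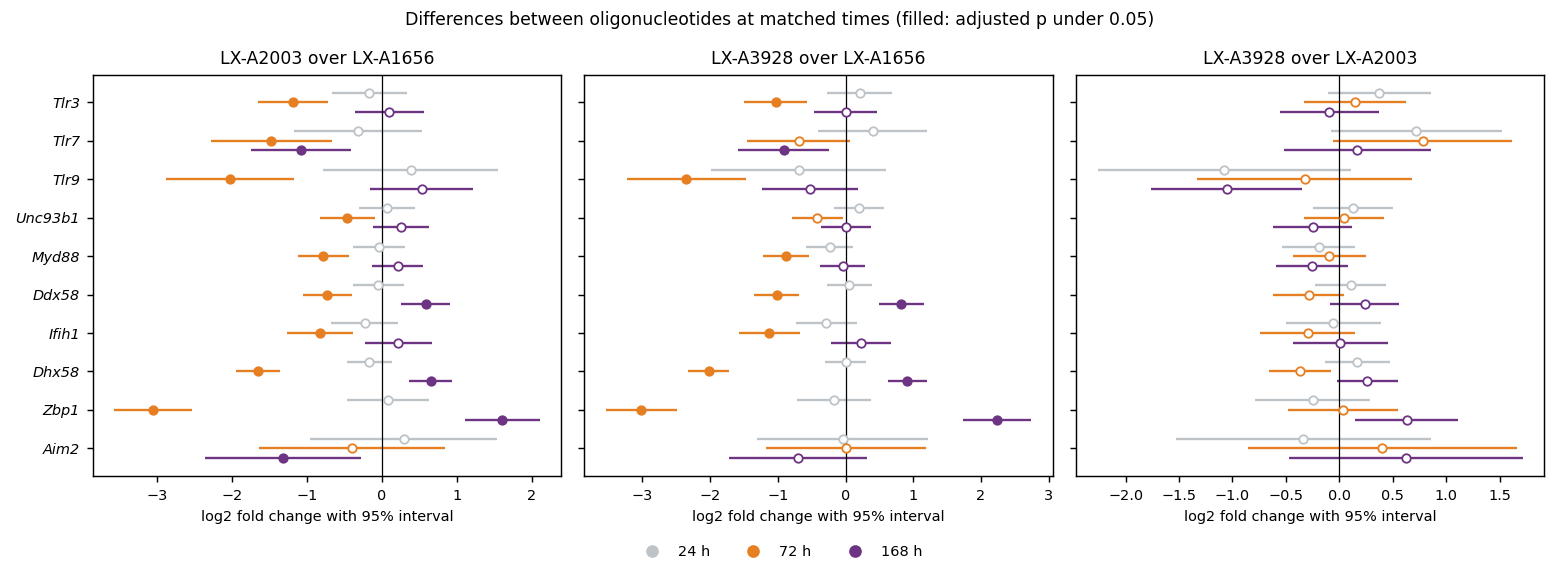
Differences between oligonucleotides in each of the 10 sensors at 24 h, 72 h and 168 h, as log2 fold changes with 95% intervals, for LX-A2003 over LX-A1656, LX-A3928 over LX-A1656 and LX-A3928 over LX-A2003; filled points have an adjusted p under 0.05. Filled points lie left of 0 at 72 h for the pairs with LX-A1656, lie on both sides at 168 h, and are absent for LX-A3928 over LX-A2003.

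The change of an effect between times was tested as an interaction, later minus earlier. With LX-A1656, 7 effects were higher at 72 h than at 24 h and none lower, where 14.2% of all genes were higher and 16.0% lower. From 72 h to 168 h, 4 of its effects fell, those of Ddx58, Ifih1, Dhx58 and Zbp1, and those of Tlr7 and Aim2 rose, where 16.1% of all genes fell and 14.0% rose. Zbp1 fell by the interaction -3.06 ± 0.37 (edgeR adjusted p = 1.41e-08) and Dhx58 by -1.74 ± 0.21 (adjusted p = 1.12e-08), while Tlr7 rose by 2.36 ± 0.56 (adjusted p = 9.68e-04). With LX-A2003, 1 effect, that of Dhx58, was higher at 72 h than at 24 h, where 0.994% of all genes were and 1.71% were lower. From 72 h to 168 h, 5 LX-A2003 effects rose, those of Tlr3, Tlr7, Tlr9, Dhx58 and Zbp1, where 15.9% of all genes rose and 13.8% fell. With LX-A3928, 0 effects changed from 24 h to 72 h, where 1.26% of all genes did, with 1 member at an unadjusted p under 0.05 and 0 called by DESeq2. From 72 h to 168 h, 5 LX-A3928 effects rose, those of Tlr3, Tlr7, Ddx58, Dhx58 and Zbp1, where 12.5% of all genes rose and 10.5% fell. Zbp1 rose by the interactions 1.60 ± 0.37 with LX-A2003 (adjusted p = 8.67e-04) and 2.20 ± 0.37 with LX-A3928 (adjusted p = 1.81e-05).

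Some of these interactions hung on 1 library. The LX-A1656 change of Tlr3 from 24 h to 72 h was not called without 1 of LX-A1656 replicate 3 at either time or PBS replicates 1 and 2 at 24 h and 2 at 72 h, at 0.77 to 0.91 (adjusted p = 0.0516 to 0.0870). That of Unc93b1 was not called without LX-A1656 replicate 1 at 72 h, at 0.57 (adjusted p = 0.0895). The LX-A1656 fall of Ifih1 from 72 h to 168 h was not called without LX-A1656 replicate 4 at 168 h, LX-A1656 replicate 2 or 3 at 72 h, PBS replicate 4 at 168 h or PBS replicate 1 at 72 h, at -0.84 to -0.69 (adjusted p = 0.0516 to 0.0943). The LX-A1656 rise of Aim2 was not called without PBS replicate 1 at 72 h, at 2.30 (adjusted p = 0.0587), and was 3.43 (adjusted p = 0.00666) without PBS replicate 2 at 168 h. The LX-A2003 rise of Tlr9 was not called without that same 72 h PBS library, at 1.96 (adjusted p = 0.0745). The LX-A2003 rise of Dhx58 from 72 h to 168 h was not called without LX-A2003 replicate 2 at 168 h or 1 at 72 h, or without PBS replicate 1, 2 or 4 at 168 h or 1 or 2 at 72 h, at 0.44 to 0.55 (adjusted p = 0.0611 to 0.120). The LX-A3928 rise of Tlr7 was 1.33 (adjusted p = 0.0312) without LX-A3928 replicate 3 at 168 h. The LX-A3928 rises of Tlr3 and Ddx58 were not called when only the libraries compared were fitted (1.18, adjusted p = 0.0514, and 0.85, adjusted p = 0.0633) or without the 6 libraries that stood apart (0.91, adjusted p = 0.0509, and 0.56, adjusted p = 0.0582). With no filter the LX-A1656 change of Tlr3 (0.95, adjusted p = 0.0507) and the LX-A2003 rise of Dhx58 (0.56, adjusted p = 0.106) were not called, and with library totals the LX-A1656 fall of Ifih1 was not (-0.63, adjusted p = 0.170). Library totals moved the median of all genes by 0.24 and 0.25 for the LX-A1656 changes and by 0.43 and 0.38 for the later LX-A2003 and LX-A3928 changes. Other effects became calls without 1 library: the LX-A1656 fall of Myd88 without LX-A1656 replicate 4 or PBS replicate 2 at 168 h (-0.77 and -0.67), the LX-A1656 change of Ifih1 from 24 h to 72 h without LX-A1656 replicate 1 (0.84), the LX-A2003 change of Ddx58 from 24 h to 72 h without LX-A2003 or PBS replicate 1 at 72 h (0.87 and 0.92), the LX-A2003 rise of Unc93b1 without LX-A2003 replicate 4 at 168 h (0.67), and the LX-A3928 rises of Aim2 without LX-A3928 or PBS replicate 2 at 168 h (2.33 and 2.73) and of Tlr9 without LX-A3928 replicate 1 at 72 h (2.16).

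The order of the 12 group means set the sensors apart from each other. LX-A1656 at 72 h was the highest group for Tlr3, Myd88, Ddx58, Ifih1, Dhx58 and Zbp1, LX-A1656 at 168 h for Tlr7 and Aim2, and LX-A2003 at 168 h for Tlr9 and Unc93b1. For Dhx58, LX-A1656 at 72 h (124 CPM on average) did not overlap the next group, LX-A3928 at 168 h (68.4 CPM), which overlapped LX-A2003 at 168 h (57.0 CPM). LX-A2003 at 72 h (39.4 CPM) and LX-A1656 at 168 h (36.3 CPM) overlapped next, then LX-A3928 at 72 h (30.5 CPM) stood alone above the 24 h and PBS groups, which overlapped. For Zbp1, LX-A1656 at 72 h and LX-A3928 at 168 h overlapped, LX-A2003 at 168 h stood alone below them, and the other 9 groups overlapped from each to the next. Tlr3 had LX-A1656 at 72 h clear of all groups below. Ifih1 had it clear of the next group, LX-A1656 at 24 h, but not of LX-A2003 at 72 h and 168 h. In both, every later group overlapped its neighbour. In Tlr9 the break fell below LX-A1656 at 72 h, the fourth group, and in Unc93b1 LX-A2003 at 72 h, the sixth, did not overlap the next group, though PBS at 168 h and LX-A3928 and LX-A2003 at 24 h, lower in the order, reached into the range of groups above. Tlr7, Myd88, Ddx58 and Aim2 had no break: each group overlapped its neighbour in the order.

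Correlations over the 12 group means of log2 CPM are descriptions, since these groups share libraries of 1 design and the effects above. Dhx58 went with Ddx58 (Pearson r = 0.97), Zbp1 (r = 0.96) and Myd88 (r = 0.92). Myd88 also went with Tlr9 (r = 0.90), Zbp1 (r = 0.89) and Unc93b1 (r = 0.89), and Aim2 went with Tlr7 (r = 0.87). Ifih1 did not go with Tlr7 (r = -0.21) or Aim2 (r = -0.21). Among all other tested genes averaging at least 1 CPM, the 2 most like each member were Frk and Ptpn11 for Tlr3 (r = 0.95 and 0.94), Fam105a and P2ry14 for Tlr7 (r = 0.97 for both), Fchsd1 and Elmsan1 for Tlr9 (r = 0.99 for both), Mknk2 and Atxn10 for Unc93b1 (r = 0.98 for both) and Sqstm1 and Rtkn for Myd88 (r = 0.98 for both). They were Il17rb and Ttpal for Ddx58 (r = 0.98 and 0.97), Lrrfip2 and Srrt for Ifih1 (r = 0.93 and 0.91), E330011O21Rik and Ly96 for Dhx58 (r = 0.98 for both), E330011O21Rik and Rnf213 for Zbp1 (r = 0.98 and 0.97), and Cep83os and Nlrp1b for Aim2 (r = 0.94 and 0.92).

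Other genes of the sensing pathways were counted from lists. The shares of all genes to set beside the counts were 24.7%, 5.48% and 4.47% higher and 23.4%, 6.55% and 5.33% lower at 72 h, and 34.1%, 29.8% and 27.3% higher and 29.7%, 25.3% and 20.7% lower at 168 h. At 24 h no list had more than 1 member called. Of 23 genes of endosomal TLR signalling and trafficking, LX-A1656, LX-A2003 and LX-A3928 had 12, 1 and 1 higher and 2, 0 and 1 lower at 72 h, and 17, 14 and 12 higher and 4, 2 and 3 lower at 168 h. Their median log2 fold change at 168 h was 1.05, 0.71 and 0.55. This list is broad: it also holds Tlr2, Tlr4 and Cd14, which are not endosomal nucleic acid receptors, and general lysosomal proteases. Irf7, the transcription factor downstream of TLR7 and TLR9, rose by 2.81 ± 0.16, 1.02 ± 0.16 and 0.89 ± 0.16 at 72 h (edgeR adjusted p = 7.30e-19, 4.41e-06 and 6.81e-05). Slc15a3, a lysosomal peptide and histidine transporter, rose by 2.73 ± 0.18, 2.28 ± 0.17 and 1.87 ± 0.17 at 168 h, and Lgmn, a lysosomal protease, by 2.28 ± 0.16, 1.58 ± 0.15 and 1.10 ± 0.15.

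The duplex RNA effectors, 12 genes that include the oligoadenylate synthetases, RNase L, PKR and ADAR, had 8, 2 and 2 higher at 72 h and 9, 10 and 10 higher at 168 h under LX-A1656, LX-A2003 and LX-A3928, and none lower. Their medians at 168 h were 2.10, 1.81 and 1.87. Oasl1, an oligoadenylate synthetase-like protein, rose by 5.11 ± 0.32, 2.09 ± 0.31 and 1.45 ± 0.31 at 72 h and by 4.41 ± 0.30, 3.62 ± 0.30 and 2.47 ± 0.29 at 168 h. Oas1a rose by 2.51 ± 0.26, 2.97 ± 0.26 and 2.84 ± 0.26 at 168 h and Oasl2 by 1.76 ± 0.22, 2.51 ± 0.22 and 2.13 ± 0.22. Reads of these paralogs could not be checked for assignment between copies. Of 11 genes listed as sensor outputs, 10, 5 and 2 were higher at 72 h, 0, 1 and 0 lower, and 9 were higher with each oligonucleotide at 168 h. They are chemokines, interferon-stimulated genes, Nfkbia, Tnfaip3 and Irf8, and whether they rose through sensing was not tested. Ccl2, a chemokine that draws monocytes, rose by 7.34 ± 0.43, 5.82 ± 0.42 and 4.71 ± 0.42 at 168 h. Cxcl10, an interferon-induced chemokine, rose by 5.41 ± 0.29, 2.53 ± 0.27 and 1.34 ± 0.27 at 72 h. Rsad2, the antiviral enzyme viperin, rose by 5.02 ± 0.29 with LX-A1656 and 1.13 ± 0.27 with LX-A2003 at 72 h, and had 0.36 ± 0.28 with LX-A3928 (adjusted p = 0.499).

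The adaptors and regulators of the RIG-I-like receptors moved in both directions. Of 14, LX-A1656, LX-A2003 and LX-A3928 had 4, 3 and 2 higher and 5, 0 and 1 lower at 72 h, and 1, 3 and 3 higher and 7, 6 and 4 lower at 168 h, with medians of -0.35, -0.31 and -0.33 at that time. Mavs, the mitochondrial adaptor through which RIG-I and MDA5 signal, fell by the values -1.67 ± 0.14, -0.92 ± 0.14 and -0.95 ± 0.14 at 168 h (edgeR adjusted p = 6.64e-14, 3.31e-07 and 2.54e-07). Rnf125, a ubiquitin ligase that marks RIG-I for degradation, had -2.12 ± 0.22, -2.41 ± 0.22 and -2.17 ± 0.22, all called lower. Usp18, which removes ISG15 from proteins and dampens interferon signalling, rose by 4.05 ± 0.23, 2.77 ± 0.22 and 3.19 ± 0.22.

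Among 15 genes of cytosolic DNA sensing, 7, 0 and 0 were higher and 1, 1 and 1 lower at 72 h, and 7, 6 and 7 higher and 2, 1 and 1 lower at 168 h. Tmem173, which encodes STING, rose by 2.20 ± 0.20, 1.87 ± 0.20 and 1.46 ± 0.21 at 168 h. Rnaseh2c, a subunit of the RNase H2 complex, fell by the values -2.21 ± 0.25, -1.14 ± 0.24 and -0.72 ± 0.24. Gsdmd, which forms the pore of pyroptosis, was lower with LX-A1656 alone, at -1.01 ± 0.14 (edgeR adjusted p = 1.33e-08), beside 0.05 ± 0.13 and 0.21 ± 0.13. Of 5 genes of the ZBP1 death pathway, 2 were higher with each oligonucleotide at 168 h, and 1, 1 and 0 lower. The kinase Ripk3 rose by 3.03 ± 0.38, 2.84 ± 0.38 and 2.31 ± 0.38 and its substrate Mlkl by 1.02 ± 0.26, 1.55 ± 0.26 and 2.05 ± 0.26 at 168 h. The protease Casp6 was lower with LX-A1656 and LX-A2003, at -0.60 ± 0.15 and -0.91 ± 0.15, and had -0.32 ± 0.15 with LX-A3928.

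Of 10 interferon signalling genes, 3, 1 and 1 were higher and 1, 1 and 0 lower at 72 h, and 6, 3 and 3 higher and 2, 1 and 1 lower at 168 h. The 3 of 10 higher with LX-A2003 and LX-A3928 at 168 h stand near the 29.8% and 27.3% of all genes. Irf9, a partner of the STATs, rose by 1.68 ± 0.15, 0.98 ± 0.15 and 0.60 ± 0.15 at 72 h and was also called with LX-A1656 at 24 h, at 0.66 ± 0.15 (edgeR adjusted p = 0.00463). The interferon gamma receptor chains Ifngr1 and Ifngr2 rose at 168 h, Ifngr1 by 2.01 ± 0.19, 1.57 ± 0.18 and 1.39 ± 0.18. Ifnb1, Ifng, Ifna4, Tnf, Il6 and Il12b did not pass the filter on low counts, and Isg15, Ifit3, Socs1, Fadd, Trex1, Hmgb1 and Ifna1 were not analysed here. Of 7 helicase-domain relatives of the RIG-I-like receptors, listed for comparison, 1, 0 and 0 were higher at 72 h and 3, 1 and 2 at 168 h, none lower. Ddx1 rose by 1.40 ± 0.34, 0.79 ± 0.34 and 1.41 ± 0.35, while Ddx21 was called with LX-A1656 and LX-A3928 and Dhx9 with LX-A1656 at that time. Without the 6 libraries that stood apart, LX-A1656 had 5 of these 7 higher at 168 h and LX-A2003 had 0 higher and 3 lower. Without them the duplex RNA effectors had 11, 9 and 9 higher and 0, 1 and 0 lower at 168 h.

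Markers of immune and liver cells moved in the same libraries as the sensors. The 6 monocyte and recruited macrophage markers summed to 495 to 787 CPM under LX-A1656, 269.7 to 332 CPM under LX-A2003 and 173 to 319 CPM under LX-A3928 at 168 h, against 52.1 to 64.8 CPM with PBS. Of the 6 tested, 5, 6 and 6 were higher at 168 h and 5, 1 and 1 at 72 h. At 72 h they summed to 149.8, 85.1 and 79.1 CPM on average, against 50.9 CPM with PBS, and at 24 h to 60.7, 65.6 and 61.0 CPM, against 53.8 CPM. With LX-A1656 the sum was highest at 168 h, as were the means of Tlr7, Tlr9, Unc93b1 and Aim2, while those of Tlr3, Myd88, Ddx58, Ifih1, Dhx58 and Zbp1 were highest at 72 h. Fold changes over PBS at the same time did not all keep that order. On the log2 scale they were 2.81 at 72 h and 2.57 at 168 h for Tlr9, 1.04 and 0.86 for Unc93b1, and 0.99 and 1.09 for Tlr3. The change from 72 h to 168 h was not called for Tlr3, Tlr9, Unc93b1 or Myd88. The 12 Kupffer cell markers summed to 642 to 956, 659.5 to 873 and 534 to 772 CPM at 168 h, against 314 to 373 CPM with PBS, and 8, 7 and 6 of the 11 tested were higher and 1, 0 and 1 lower. At 72 h they summed to 247 to 278, 325 to 344 and 292 to 418 CPM, against 289.8 to 323 CPM, with 5 of 11 lower and 2 higher with LX-A1656. C1qa had 0 reads in PBS at 168 h and in LX-A2003 at 24 h and 72 h, and few elsewhere.

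Plasmacytoid dendritic cells are rich in Tlr7 and Tlr9 transcripts. Siglech, their defining marker, averaged 3.71, 1.20 and 0.727 CPM under LX-A1656, LX-A2003 and LX-A3928 at 72 h, against 0.294 CPM with PBS, and 1.42, 2.84 and 3.18 CPM at 168 h, against 0.215 CPM. All 3 tested markers of this list of 6 were called higher with each oligonucleotide at 168 h and with LX-A1656 at 72 h. The others, Ccr9, Cox6a2 and Pacsin1, did not pass the filter on low counts. The list summed to 155 to 311, 177 to 294 and 89.1 to 205 CPM at 168 h, against 0.517 to 1.76 CPM, nearly all of it Ly6d, which other cells also express. In PBS at 168 h Pacsin1 had 0 reads. Conventional dendritic cell markers summed to 13.1 to 25.3, 22.8 to 30.3 and 18.7 to 25.5 CPM at 168 h, against 6.16 to 11.4 CPM with PBS, and 3 of 4 tested were higher with each. B cell markers, whose cells also carry Tlr7 and Tlr9, summed to 0.776 to 1.85, 0.269 to 0.929 and 1.12 to 2.80 CPM at 168 h, against 1.88 to 3.94 CPM, with 1, 2 and 0 of 2 tested lower. The part of these cells in the sensor results was not tested.

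Hepatocyte and endothelial sums were lower than with PBS at 168 h, apart from 1 library given with its value, at a time when 8 or 9 of the 10 sensors were called higher. Hepatocyte markers summed to 29264 to 41568, 28731 to 35466 and 28775 to 82096 CPM under LX-A1656, LX-A2003 and LX-A3928 at 168 h, against 60323 to 78623 CPM with PBS, with 6, 5 and 5 of 7 lower and none higher. The LX-A3928 maximum is replicate 3, the library that stood farthest apart, and the next was 39369 CPM. At 72 h they summed to 37764 to 53151, 62535 to 65346 and 66160.1 to 96534 CPM, against 62230.5 to 68727 CPM, with 5, 1 and 1 lower and 0, 1 and 1 higher. Sinusoidal endothelial markers summed to 139.5 to 156, 218 to 245 and 212 to 246 CPM at 72 h, against 356 to 407 CPM, and to 183 to 224, 215 to 256 and 245 to 295 CPM at 168 h, against 377 to 399 CPM. At 24 h, when no sensor was called, the endothelial markers summed to 211 to 251, 313 to 349 and 294 to 325 CPM, against 353 to 389 CPM with PBS. Of 8 endothelial markers 3, 2 and 2 were lower at 24 h, where 2.86%, 2.09% and 3.26% of all genes were called in either direction, 5, 4 and 4 were lower at 72 h, and 5 lower and 3 higher with each oligonucleotide at 168 h. Stellate cell markers were higher in 5 of 6 with each oligonucleotide at 168 h, T cell markers in 2, 3 and 2 of 4, neutrophil markers in 2, 0 and 2 of 2, the 1 tested NK cell marker with LX-A2003 and LX-A3928, and cholangiocyte markers in 2 of 5 with each, with 1, 0 and 1 lower. Of all genes 34.1%, 29.8% and 27.3% were higher and 29.7%, 25.3% and 20.7% lower at that time. The cholangiocyte counts lie near that background. Neutrophil sums with LX-A3928 ran from 4.47 to 30.9 CPM at 168 h, against 2.69 to 4.52 CPM with PBS. Without the 6 libraries that stood apart, 2, 1 and 1 neutrophil markers were higher at 168 h. Stellate cell markers were then higher in 5, 5 and 4 and cholangiocyte markers in 2, 2 and 1. The part of these cell types in the sensor results was not tested.

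**Figure D4:**
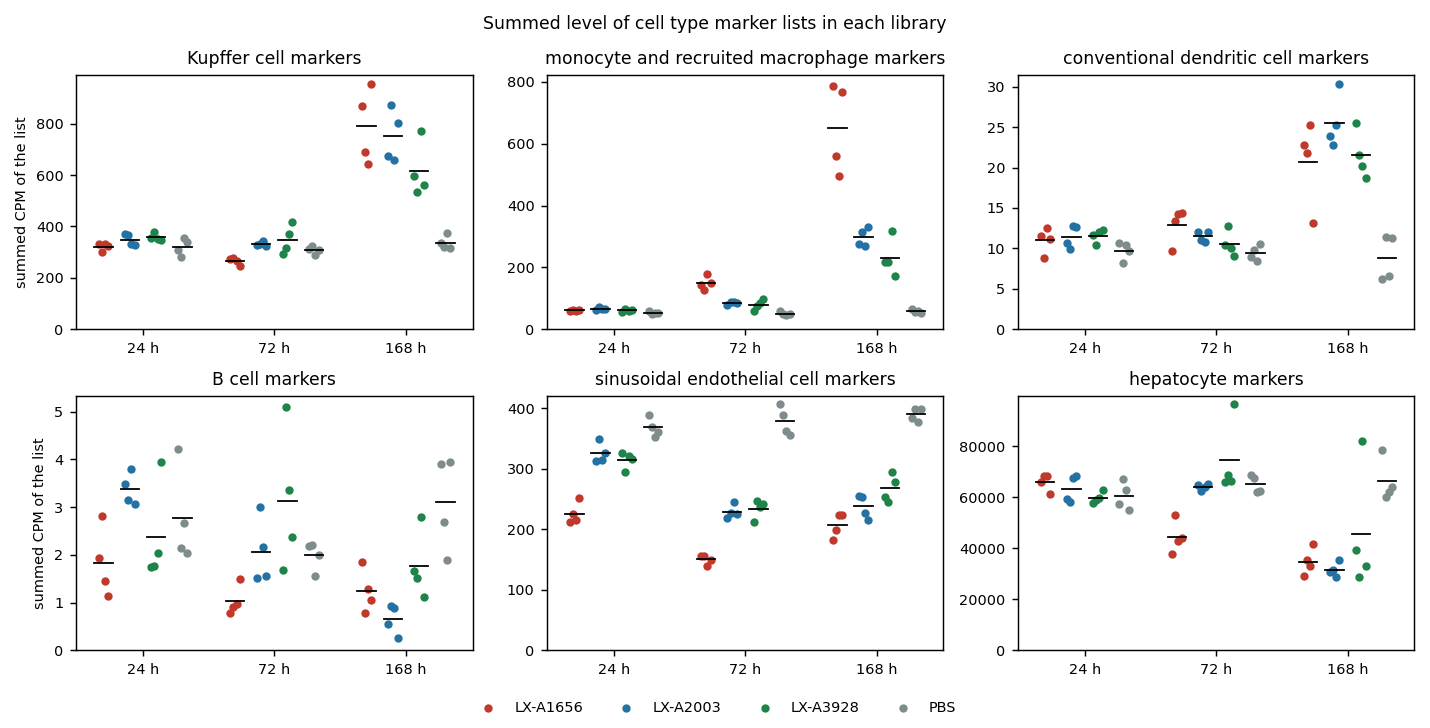
Summed CPM of 6 cell type marker lists in every library, with the 3 times along the horizontal axis and LX-A1656, LX-A2003, LX-A3928 and PBS from left to right within a time; bars are means of 4 libraries and each vertical axis has its own scale. Kupffer, monocyte and dendritic cell sums stand above PBS at 168 h, endothelial sums below PBS at all 3 times, and hepatocyte sums below PBS at 168 h except in the 1 LX-A3928 library at 82096 CPM.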

How the data were processed

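Liver RNA was measured by targeted amplicon sequencing (Ion AmpliSeq) in 48 libraries, 4 in each of 12 groups of oligonucleotide and time. The deposited table holds raw read counts per gene, per the file headers and the values, which are whole numbers; no source used here names the aligner, counter or genome build. Totals ran from 8140065 to 17191129 counts per library and genes tested held at least 99.9% of them. Genes were kept by edgeR's filterByExpr on the 12 groups, leaving 12672 of 23930. TMM scaling and the robust quasi-likelihood F test of edgeR 4.0.16 (R 4.3.3) were applied to 12 group means over all 48 libraries, with Benjamini-Hochberg adjustment over all genes in each of 26 comparisons. These were 9 of oligonucleotide with PBS, 9 between oligonucleotides, 6 changes of effect between times and 2 of PBS times. The scripts were tested on simulated data. CPM values were computed from the deposited counts with TMM-scaled totals.

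Members and lists were chosen with earlier results of these data known, and lists are described by counts. All 10 members are named, and from each pathway list the 3 genes with the smallest p in any comparison with PBS. The 2 genes most like a member are those with the highest Pearson r among tested genes averaging at least 1 CPM. Alternatives were library totals, no filter, only the libraries compared, DESeq2 1.42.0, the replicate number as a block, each replicate left out and, chosen after seeing the data, the 6 libraries that stood apart left out. A library was said to stand apart where its smallest chi-square per degree of freedom to a fellow was over 1.5 times the largest among them. Replicates differed by a chi-square per degree of freedom of 5.75 to 215.5, so none was a repeat of another within sampling noise.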

Additional observations from a re-analysis of the deposited data

Results flagged for a closer look

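In 10 of 120 groups of 4 libraries of a member, 1 library lay far from the other 3 by Dixon's ratio at the 95% level, and chance marks about 1 group in 20. Tlr7 was 8.08 CPM in LX-A2003 replicate 2 at 168 h, where the other 3 lay between 5.04 and 5.44 CPM. Unc93b1 was 115 CPM in LX-A2003 replicate 2 at 24 h, where the other 3 lay between 97.0 and 98.7 CPM. Myd88 was 70.5 CPM in LX-A1656 replicate 1 at 72 h, where the other 3 lay between 50.1 and 52.8 CPM. Myd88 was 36.0 CPM in LX-A2003 replicate 1 at 24 h, where the other 3 lay between 26.7 and 27.6 CPM. Ifih1 was 16.6 CPM in LX-A1656 replicate 4 at 168 h, where the other 3 lay between 23.9 and 24.3 CPM. Dhx58 was 161 CPM in LX-A1656 replicate 1 at 72 h, where the other 3 lay between 107 and 115 CPM. Dhx58 was 17.1 CPM in LX-A3928 replicate 4 at 24 h, where the other 3 lay between 22.6 and 23.2 CPM. Dhx58 was 29.5 CPM in LX-A3928 replicate 1 at 72 h, where the other 3 lay between 30.8 and 30.9 CPM. Dhx58 was 21.8 CPM in PBS replicate 3 at 168 h, where the other 3 lay between 15.4 and 16.5 CPM. Zbp1 was 4.99 CPM in LX-A1656 replicate 4 at 24 h, where the other 3 lay between 7.08 and 7.45 CPM. Replicate 1 of LX-A1656 at 72 h and replicate 4 of LX-A1656 at 168 h are among the 6 libraries that stood apart over all genes.

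The effect against PBS differed between times, by the interaction in edgeR, in 24 of 60 tests of a member. Of all genes, 14.2% rose and 16.0% fell with LX-A1656 from 24 h to 72 h, and 14.0% and 16.1% from 72 h to 168 h. With LX-A2003 the shares were 0.994% and 1.71%, then 15.9% and 13.8%. With LX-A3928, 1.26% changed in either direction at the earlier step, and 12.5% rose and 10.5% fell at the later. With LX-A1656, 72 h minus 24 h, the log2 effect changed for Tlr3 by 0.94 (adjusted p = 0.0306), Tlr9 by 3.26 (adjusted p = 8.93e-04), Unc93b1 by 0.80 (adjusted p = 0.0165), Myd88 by 0.77 (adjusted p = 0.0132), Ddx58 by 1.49 (adjusted p = 3.36e-06), Dhx58 by 2.68 (adjusted p = 1.25e-13) and Zbp1 by 3.55 (adjusted p = 5.66e-10). With LX-A1656, 168 h minus 72 h, the log2 effect changed for Tlr7 by 2.36 (adjusted p = 9.68e-04), Ddx58 by -1.03 (adjusted p = 7.16e-04), Ifih1 by -0.89 (adjusted p = 0.0274), Dhx58 by -1.74 (adjusted p = 1.12e-08), Zbp1 by -3.06 (adjusted p = 1.41e-08) and Aim2 by 2.67 (adjusted p = 0.0171). With LX-A2003, 72 h minus 24 h, the log2 effect changed for Dhx58 by 1.19 (adjusted p = 3.70e-04). With LX-A2003, 168 h minus 72 h, the log2 effect changed for Tlr3 by 1.38 (adjusted p = 0.00170), Tlr7 by 2.76 (adjusted p = 2.77e-04), Tlr9 by 2.32 (adjusted p = 0.0139), Dhx58 by 0.57 (adjusted p = 0.0358) and Zbp1 by 1.60 (adjusted p = 8.67e-04). With LX-A3928, 168 h minus 72 h, the log2 effect changed for Tlr3 by 1.14 (adjusted p = 0.0129), Tlr7 by 2.15 (adjusted p = 0.00457), Ddx58 by 0.81 (adjusted p = 0.0100), Dhx58 by 1.20 (adjusted p = 3.01e-05) and Zbp1 by 2.20 (adjusted p = 1.81e-05).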

How the results depend on the processing

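The counts that open this section cover only the 90 results of a member against PBS. Pairs of oligonucleotides and changes between times are not in them, and calls of theirs changed too, as given above and below. Over the alternatives other than single replicates, 509 results against PBS kept direction and side of the threshold, 7 lost a call, 7 gained one and 5 turned round. Results for which an alternative fit gave no value are not in these counts. Over the fits that left out 1 replicate, 659 results against PBS kept both, 25 lost a call, 2 gained one and 34 turned round. No called result turned round in any of these fits; those that did had log2 values of at most 0.46 in size. The number of called members moved by over 1.5 times in the cases that follow, and the cause was not tested. LX-A3928 against PBS at 24 h had 1 with only the libraries compared and 1 without the 6 libraries that stood apart, against 0. LX-A3928 against PBS at 72 h had 1 to 3 when 1 replicate was left out, against 3. LX-A3928 over LX-A2003 at 168 h had 1 with DESeq2 and 0 to 1 without 1 replicate, against 0. The LX-A2003 effect at 72 h minus 24 h had 2 with only the libraries compared, 2 with DESeq2, 2 without the 6 libraries and 1 to 2 without 1 replicate, against 1. The LX-A2003 effect at 168 h minus 72 h had 8 with library totals and 3 to 6 without 1 replicate, and the LX-A3928 effect 8 with library totals, 3 with only the libraries compared and 3 without the 6 libraries, each against 5. With library totals, Ifih1 with LX-A2003 at 24 h was -0.018 and Aim2 with LX-A1656 at 72 h 0.018, on the other side of 0. Without the 6 libraries Aim2 with LX-A1656 at 72 h was 0.13, Tlr3 with LX-A3928 at 72 h 0.023 and Ifih1 with LX-A2003 at 168 h -0.11. Leaving out 1 replicate also turned the direction of results near 0. For LX-A1656 at 24 h the ranges were Dhx58 -0.056 to 0.19, Tlr3 -0.058 to 0.16, Tlr9 -0.71 to 0.088, Zbp1 -3.67e-08 to 0.22. For LX-A2003 at 24 h the ranges were Dhx58 -0.15 to 0.016, Ifih1 -0.055 to 0.14, Tlr7 -0.17 to 0.16, Tlr9 -0.33 to 0.47, Zbp1 -0.20 to 0.46. For LX-A3928 at 24 h the ranges were Ifih1 -0.079 to 0.025, Myd88 -0.046 to 0.097, Zbp1 -0.17 to 0.011. For LX-A1656 at 72 h the range was Aim2 -0.62 to 0.16. For LX-A3928 at 72 h the ranges were Aim2 -0.43 to 0.16, Tlr3 -0.25 to 0.074, Tlr7 -1.30e-04 to 0.17, Tlr9 -0.11 to 0.81. For LX-A1656 at 168 h the range was Ifih1 -0.070 to 0.24. For LX-A2003 at 168 h the range was Ifih1 -0.11 to 0.46. Library totals moved the median of all genes by -0.10 for LX-A3928 over LX-A2003 at 168 h, with 42.5% of calls higher where TMM gave 65.8%, and put 24.0% higher for that pair at 72 h, where TMM gave 40.7%. Of the interactions, library totals put 66.9% and 68.0% of calls higher for LX-A1656, 82.5% for LX-A2003 and 85.2% for LX-A3928 at the later step, where TMM gave 47.1%, 46.6%, 53.5% and 54.5%, and for PBS at 168 h over 24 h 18.9%, where TMM gave 34.4%. Same-numbered replicates of an oligonucleotide and PBS at the same time correlated by -0.35 to 0.40 in their deviations. For LX-A3928 and PBS at 168 h the range was -0.33 to -0.19. Pairs between oligonucleotides or across times were not examined, so these values cannot show whether same-numbered replicates share more than a number. With the replicate number as a block no call against PBS changed, while Unc93b1 with LX-A2003 over LX-A1656 at 72 h (-0.46, adjusted p = 0.0570) and Aim2 in that pair at 168 h (-1.31, adjusted p = 0.0571) were not called; the members called against PBS stayed at 8, 3 and 3 at 72 h and 9, 8 and 9 at 168 h under the block. Depth limits Tlr9 and Aim2 most, with 1 to 11 and 0 to 13 reads in a PBS library.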
